A study of Mus musculus with 2 samples.

Results

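Fibroblasts are the main makers of the collagen-rich matrix in the mammary gland and in its tumors. They are commonly recognised in tissue by a small set of genes that encode growth factor receptors, cell surface proteins and secreted matrix proteins. The 10 fibroblast marker genes described here are Pdgfra, Pdgfrb, Fap, Dcn, Lum, Postn, Thy1, Dpt, Pi16 and Clec3b. They were chosen by name, through the Ensembl identifiers that carry these symbols in the GENCODE M21 mouse annotation, and each symbol matched 1 of the 55536 genes in the deposited table. RNA was sequenced from 2 mammary tumors of MMTV-PyVT mice, 1 from an animal given cyanidin-3-glucoside (C3G), an anthocyanin pigment of plants, and 1 from an animal given the vehicle dimethyl sulfoxide (DMSO). In both animals the mouse mammary tumor virus promoter drives middle T antigen of polyoma virus in epithelial cells of the gland, so the transgene acts in the tumor cells and the fibroblasts are host cells around them. Treatment started at the stage of ductal hyperplasia and tumors were collected at a set tumor burden. The age and strain of the animals and the dose of C3G are not given in the sources used here.

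Values are in TPM, a unit which scales the reads of a gene by its length, so that levels of different genes within a library can be compared. The DMSO library held 12192275 reads assigned to genes and the C3G library 16081110. With 1 tumor per group there was no replicate check and no test, and a difference between the treatments and a difference between the 2 mice cannot be told apart. Each fold is followed by its 95% interval, which covers counting error alone. In a whole tumor, fewer fibroblasts and less RNA per fibroblast cannot be told apart either.

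The fibroblast markers stood at nearly the same level in the DMSO and the C3G tumor. Their summed level was 618 TPM under DMSO against 610.05 TPM under C3G, a ratio of 0.987. The log2 ratio, log2((C3G TPM + 1)/(DMSO TPM + 1)), was above 0 for 6 markers and below 0 for 4, and its median was 0.09. Over the 17468 genes with a mean of at least 1 TPM the median log2 ratio was 0.10 and 58.9% of genes were above 0. The middle 50% of those genes had log2 ratios from -0.22 to 0.38, and 8 of the 10 markers lay in that range, all but Dcn and Pi16. None of the 9 markers that reached 5 TPM in either library differed by 2-fold or more, while 7.40% of the 12780 genes that reached this level did. At a fold of 1.2, Lum was higher with C3G, 1 of 9 markers against 35.7% of genes, and Dcn and Pi16 were lower, 2 of 9 against 19.3% of genes. The tenth marker, Fap, fell just short of 5 TPM and was not counted.

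The order of the levels was the same in both tumors except at the top. Dcn, Postn and Lum together made up 74.6% of the summed TPM of the 10 markers with DMSO and 74.9% with C3G. Dpt, Thy1, Clec3b, Pi16, Pdgfrb, Pdgfra and Fap followed in that order in both libraries, with the highest marker 49.8 times the lowest with DMSO and 38.6 times with C3G. All 10 markers were well above the floor of 3 reads, with 90 reads for Fap with DMSO as the fewest and 9200 for Postn with C3G as the most.

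**Figure D1:**
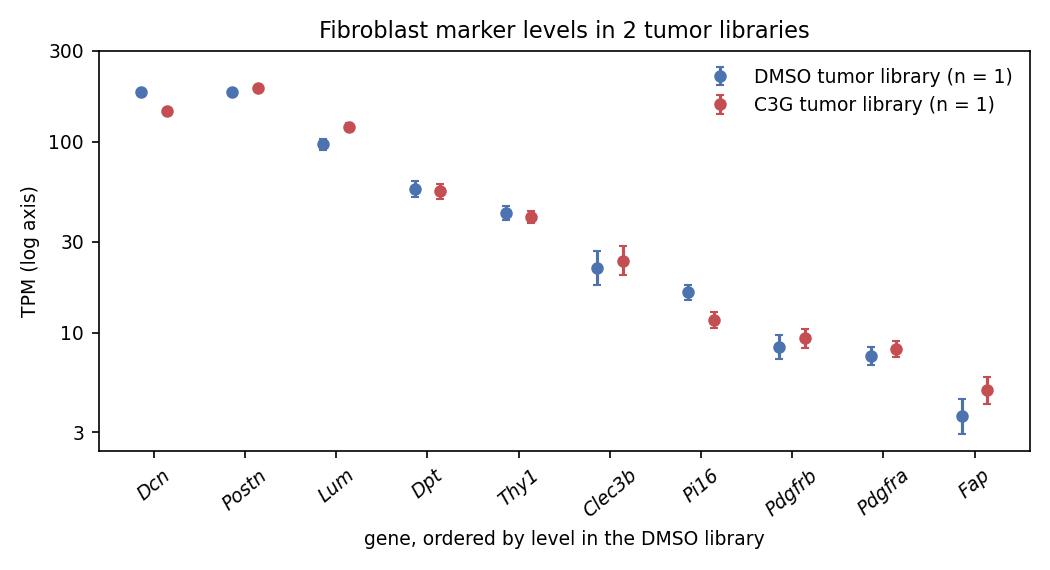
Level of each fibroblast marker in TPM (log axis) in the DMSO and the C3G tumor library, 1 library each, with bars for the exact 95% Poisson interval of its reads. The points of both libraries lie close together for most genes, with Dcn and Pi16 visibly lower and Lum and Fap higher with C3G.

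Decorin (Dcn) and lumican (Lum) are small leucine-rich proteoglycans, secreted proteins that bind collagen fibrils and regulate their thickness and spacing. Their genes lie next to each other on mm10 chromosome 10, Dcn at 97479609 to 97518143 and Lum at 97565128 to 97572703, 46985 bases apart and on the same strand. Dcn measured 183 TPM under DMSO against 145 TPM under C3G, 1.26-fold lower (1.21 to 1.31). Lum measured 96.9 TPM under DMSO against 119 TPM under C3G, 1.23-fold higher (1.14 to 1.34). The neighbouring genes thus differed in opposite directions between the libraries. The amount of Lum per Dcn, which does not depend on how the libraries are scaled, was 0.530 with DMSO and 0.825 with C3G, a change of 1.56-fold (1.42 to 1.70). Both genes rest on over 1000 reads per library, 4624 and 4648 for Dcn and 1028 and 1607 for Lum. The next gene of this cluster, Kera (keratocan), had 0 reads with DMSO and 3 with C3G.

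Periostin (Postn), a matricellular protein of the fasciclin family that fibroblasts secrete into collagen-rich stroma, lies on chromosome 3 at 54361109 to 54391037. It measured 182 TPM under DMSO against 192 TPM under C3G, a ratio of 1.06 (1.03 to 1.09) from 6851 and 9200 reads. Postn was the second most abundant marker with DMSO and the most abundant with C3G, and the Dcn level per Postn went from 1.01 to 0.753. Dermatopontin (Dpt), a small tyrosine-rich matrix protein that binds decorin and collagen, lies on chromosome 1 at 164796644 to 164824266. It measured 56.9 TPM under DMSO against 54.9 TPM under C3G, a ratio of 0.965 (0.848 to 1.10). For Postn the interval left out 1 and for Dpt it did not, so at this depth no difference in Dpt was detectable. Among all genes with 5 TPM in either library the interval left out 1 for 62.9%, and among the 9 markers with that level for 4 (Dcn, Lum, Postn and Pi16).

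Peptidase inhibitor 16 (Pi16), a protein of the CAP family, marks fibroblasts of the adventitia around vessels, which are held to be a source of more specialised fibroblasts. It lies on chromosome 17 at 29317680 to 29330593 and was the marker with the largest difference in size by log2 ratio. Pi16 measured 16.2 TPM under DMSO against 11.6 TPM under C3G, 1.40-fold lower (1.22 to 1.60) from 448 and 407 reads. Its log2 ratio of -0.45 was still moderate among all genes, of which 15.5% had a lower value. Tetranectin (Clec3b), a secreted C-type lectin that binds plasminogen and is also found in adventitial fibroblasts, lies on chromosome 9 at 123150946 to 123157432. It measured 21.9 TPM under DMSO against 23.8 TPM under C3G, a ratio of 1.09 (0.830 to 1.44) from 94 and 130 reads. Between these 2 markers of adventitial fibroblasts, the level of Pi16 per Clec3b was 0.743 with DMSO and 0.488 with C3G, 1.52-fold lower (1.12 to 2.07).

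RefSeq's promoter table (build GRCm38.p6, the same assembly as mm10) held 4 of the 10 markers, Pdgfra, Postn, Dpt and Pi16. The 250 bases before the RefSeq start of Pi16, the marker with the largest difference, and of Postn, the marker with the most reads, are printed 5′ to 3′, at chr17:29318632-29318881 and chr3:54360857-54361106, both on the plus strand. The RefSeq start of Pi16 lies inside the gene span that GENCODE M21 gives, downstream of the GENCODE start, so the window is inside the Pi16 gene as annotated there. Capitals mark matches on either strand to the TATA box TATAAA, the CCAAT box CCAAT and the AP-1 motif TGANTCA, which do not overlap here.
Pi16: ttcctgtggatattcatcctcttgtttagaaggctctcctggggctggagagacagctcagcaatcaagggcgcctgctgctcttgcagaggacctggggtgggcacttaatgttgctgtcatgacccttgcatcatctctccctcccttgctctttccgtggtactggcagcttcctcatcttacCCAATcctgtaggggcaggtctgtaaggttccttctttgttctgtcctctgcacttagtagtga
Postn: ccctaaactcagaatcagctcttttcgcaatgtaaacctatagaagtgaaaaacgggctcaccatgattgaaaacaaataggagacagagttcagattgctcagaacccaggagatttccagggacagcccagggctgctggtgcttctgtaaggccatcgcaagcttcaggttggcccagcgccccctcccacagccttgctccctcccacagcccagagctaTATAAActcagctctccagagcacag
Counting back from -1 at the base before the start, the Postn window held a TATAAA from position -26 and the Pi16 window a CCAAT from position -64, and neither held a TGANTCA. Of 32851 promoter windows of this length, 12.4% held TATAAA, 33.8% CCAAT and 6.75% TGANTCA. The windows of Dpt and Pdgfra and that of a second Postn start further upstream held none of the 3 motifs.

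Fibroblast activation protein (Fap) is a surface serine protease that cleaves after proline and is a widely used marker of activated fibroblasts in tumors. It lies on chromosome 2 at 62500943 to 62574075. Fap was the least abundant marker, at 3.67 TPM under DMSO against 4.98 TPM under C3G, 1.36-fold higher (1.04 to 1.78) from 90 and 155 reads. It had the highest ratio of the 10 markers, and the lower end of its counting interval was close to 1. Thy1, a lipid-anchored surface glycoprotein of fibroblasts that T cells and neurons also carry in mice, lies on chromosome 9 at 44043384 to 44048579. It measured 42.5 TPM under DMSO against 40.4 TPM under C3G, a ratio of 0.951 (0.848 to 1.07), and no difference was detectable at this depth. T cell genes were lower in the same C3G library, with 11 of 11 measured genes of 15 listed below 0 and a summed level of 85.7 TPM against 32.0 TPM. None of these 15 genes was at 0, and the part of T cells in the Thy1 level was not tested.

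Pdgfra and Pdgfrb encode the receptors for platelet-derived growth factors, tyrosine kinases through which these factors make fibroblasts and pericytes divide and migrate. Pdgfra lies on chromosome 5 at 75152292 to 75198215, and Pdgfrb on chromosome 18 at 61045150 to 61085061. Pdgfra measured 7.57 TPM under DMSO against 8.19 TPM under C3G, a ratio of 1.08 (0.936 to 1.25) from 329 and 451 reads. Pdgfrb measured 8.42 TPM under DMSO against 9.34 TPM under C3G, a ratio of 1.11 (0.921 to 1.34) from 200 and 281 reads. Neither interval left out 1. The level of Pdgfra per Pdgfrb was 0.899 with DMSO and 0.877 with C3G, a change by a factor of 0.976 (0.769 to 1.24), so the balance of the receptors differed by no more than counting error. Pericytes carry Pdgfrb as well, and 8 of 12 measured pericyte genes of 14 listed were above 0 with a median of 0.08. The pericyte list summed to 591 TPM under DMSO against 669 TPM under C3G, none of its genes was at 0, and its defining gene Rgs5 stood at 17.6 and 27.0 TPM. The part of pericytes in the Pdgfrb level was not tested.

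Of the ligands for these receptors, 2 of 4 differed clearly more than the receptors did, and in opposite directions. Pdgfa, a ligand of Pdgfra, measured 74.8 TPM under DMSO against 32.4 TPM under C3G, 2.31-fold lower (2.08 to 2.57). Pdgfc, another ligand of Pdgfra, measured 18.5 TPM under DMSO against 34.0 TPM under C3G, 1.83-fold higher (1.63 to 2.06). Pdgfb, which binds both receptors, stood at 12.6 and 11.8 TPM, and Pdgfd, which acts mainly on Pdgfrb, at 5.41 and 6.06 TPM, with intervals of the fold that held 1. Pdgfa had the highest level of the 4 ligands with DMSO, and Pdgfc had it with C3G, at 34.0 TPM beside 32.4 TPM for Pdgfa.

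**Figure D2:**
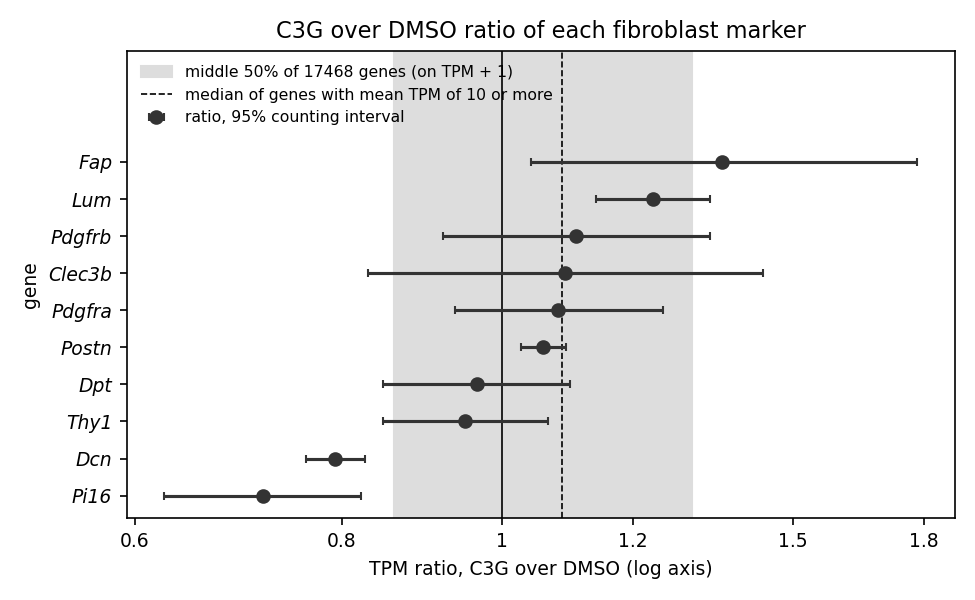
TPM ratio of C3G over DMSO for each fibroblast marker (log axis) with its 95% counting interval, 1 library per group. The grey band holds the middle 50% of genes on TPM + 1, while the points are plain TPM ratios. Pi16 and Dcn lie left of the band. Fap, at 1.36, lies right of it here, though on the TPM + 1 scale it was within the middle 50%. The dashed line shows that a typical well-expressed gene had a ratio slightly above 1.

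A shift common to well-expressed genes bears on the direction of the small ratios. The median log2 ratio of genes with a mean of at least 10 TPM was 0.12. Relative to that median, Dcn stood at -0.45, Pi16 at -0.57, Lum at 0.18 and Fap at 0.24. Pdgfra (-0.02), Postn (-0.04), Pdgfrb (0.01) and Clec3b (0.00) then lay at about the median, Thy1 at -0.19 and Dpt at -0.17. With this centring 4 markers were above 0 and 6 below, so that Pdgfra and Postn changed sign. Dcn, Pi16 and Thy1 were below 0, and Lum, Fap and Pdgfrb above 0, in the main setting and all 8 alternatives run. Pdgfra, Postn, Dpt and Clec3b had both signs. The alternatives that alter only the pseudocount or the filter cannot change the sign of a marker, so they add nothing to this count. Pdgfrb was barely above 0, at 0.01 with centring and 0.02 with upper quartile scaling.

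The ratio of each marker to each other marker needs no scaling of the libraries. Of the 45 such ratios, 21 differed between the tumors with a 95% counting interval that left out no change. These intervals were not adjusted for their number. The 45 ratios are built from only 10 markers and are not independent, and most of the 21 involve Dcn or Pi16. The share among pairs of other genes was not computed, so this count is not a result particular to the markers. Dcn was lower against 8 of the other 9 markers, and Pi16 was lower against 8 of 9. Dcn and Pi16 did not differ from each other beyond counting error, at a change of the Dcn level per Pi16 by a factor of 1.11 (0.959 to 1.28). Lum was higher against 5 of 9 and Fap against 4 of 9. The largest change in size was that of Fap per Pi16, from 0.226 with DMSO to 0.428 with C3G, 1.90-fold (1.40 to 2.57). Lum per Pi16 went from 5.97 to 10.3, 1.72-fold (1.47 to 2.02). Among Pdgfra, Pdgfrb, Postn, Thy1, Dpt and Clec3b no ratio had an interval that left out no change.

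**Figure D3:**
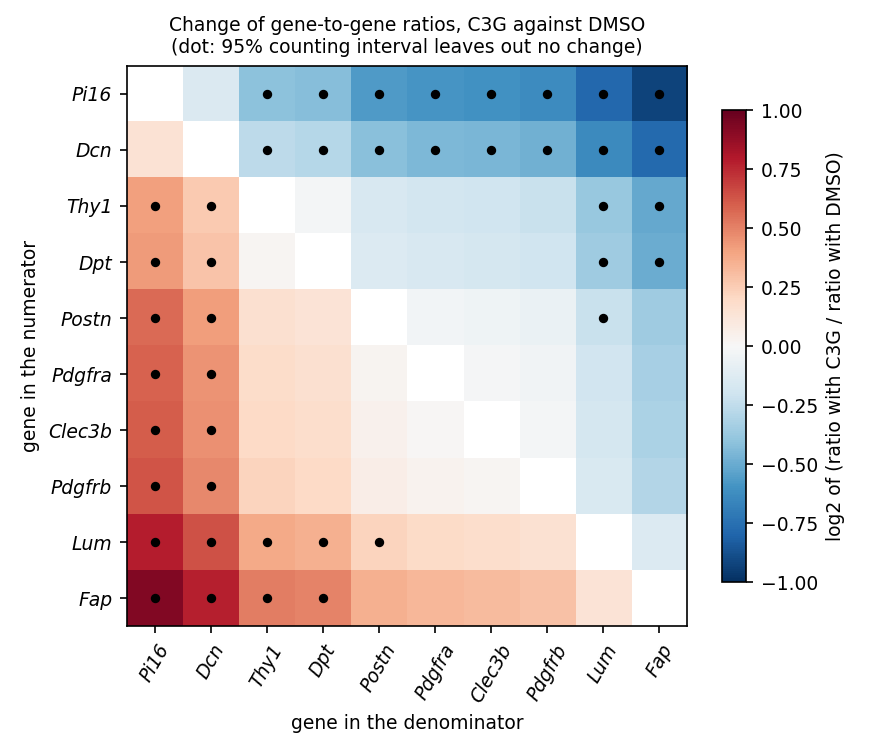
Change between the tumors in the ratio of each fibroblast marker (rows) to each other marker (columns), as log2, with red for a higher ratio with C3G and a dot where the 95% counting interval leaves out no change. The row of Pi16 is blue across, the row of Dcn is blue except against Pi16, and the rows of Lum and Fap are mostly red, while the block in the middle is pale and has no dots.

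Several relatives of decorin and lumican differed more than those markers did. The family list held 16 small leucine-rich proteoglycans, and of the 12 measured genes other than Dcn and Lum 5 were above 0 and 7 below, with a median of -0.08. Biglycan (Bgn), the closest relative of decorin and the most abundant family member, measured 323 TPM under DMSO against 184 TPM under C3G, 1.76-fold lower (1.70 to 1.82). Fibromodulin (Fmod), which binds the same region of collagen as lumican, stood at 84.6 and 30.2 TPM, 2.80-fold lower (2.53 to 3.11). Prelp was at 24.1 and 12.1 TPM and Chad, on 29 and 75 reads, at 3.98 and 8.12 TPM. Of the genes named here, Dcn therefore sat between Bgn, Fmod and Prelp, which were lower by more, and Lum and Chad, which were higher. For Fap, the 6 measured relatives among proline-cleaving peptidases were all above 0, with a median of 0.39 against 0.36 for Fap itself. Prep stood at 10.4 and 14.9 TPM, Prcp at 13.97 and 20.9 TPM, Dpp7 at 4.63 and 8.13 TPM and Dpp8 at 17.9 and 22.2 TPM. Dpp4, which is also on the list of adventitial fibroblast genes, stood at 16.1 and 17.4 TPM. Its ratio of 1.08 (0.956 to 1.23) had an interval that held 1. These peptidases are made by many cell types.

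Wider lists of fibroblast genes gave medians close to that of the markers, but their summed levels differed more. The sum was 945 TPM under DMSO against 784 TPM under C3G for the adventitial list. It was 3228 against 2553 TPM for the matrix-producing list and 344 against 387 TPM for the cytokine-producing list. The list of adventitial and universal fibroblast genes, the kind that Pi16 and Dpt mark, had 20 measured genes, 9 above and 11 below 0, and a median of -0.07. Of its 19 genes with 5 TPM in either library 4 were at least 1.2-fold higher and 7 lower, beside 35.7% higher and 19.3% lower among all such genes. Cd34 stood at 8.45 and 14.2 TPM and Efemp1 at 9.51 and 14.9 TPM, while Cd248 (endosialin) stood at 19.3 and 9.92 TPM, Gfpt2 at 6.56 and 3.25 TPM and the surface protein gene Ly6a at 202 and 140.5 TPM. Cd34 and Ly6a are endothelial genes as well. Matrix-producing genes of tumor fibroblasts, among which Postn is usually counted, had a median of -0.08, with 8 of 20 above 0. Of 19 with 5 TPM, 3 were at least 1.2-fold higher and 6 lower, beside the same shares of all genes. Ccn2, a matricellular target of TGF-beta and YAP signalling, stood at 68.0 and 130 TPM, and Sparc at 1452 and 1013 TPM, Col1a1 at 587 and 404 TPM and Col6a2 at 47.9 and 32.1 TPM. Cytokine-producing genes of tumor fibroblasts had a median of 0.17, with 8 of 15 measured genes above 0, beside 58.9% of all measured genes. Of 10 with 5 TPM, 4 were at least 1.2-fold higher and 3 lower, beside the same shares of all genes. Ccl2 stood at 11.8 and 25.7 TPM and Ccl7 at 24.8 and 43.8 TPM, the complement gene C4b at 121 and 152 TPM, and Pdpn (podoplanin) at 63.6 and 43.3 TPM and Il33 at 44.4 and 32.0 TPM. Macrophages also make Ccl2 and Ccl7, and their part was not tested.

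The adipocyte, endothelial, contractile and T cell lists had medians much further from 0 than that of the fibroblast markers. All 15 adipocyte genes were above 0, with a median of 2.12 and a summed level of 292 TPM under DMSO against 1531 TPM under C3G. Of 15 endothelial genes 14 were above 0, with a median of 1.00 (summed level 71.6 and 165 TPM). All 11 measured contractile genes of smooth muscle and myoepithelium were below 0, with a median of -1.24 and a summed level of 1908 TPM under DMSO against 773 TPM under C3G. The contractile gene Acta2, which is also a marker of myofibroblasts, stood at 712 and 318 TPM, 2.24-fold lower (2.15 to 2.33), beside Postn at 1.06-fold and Fap at 1.36-fold higher. T cell genes had a median of -0.98. The median of the 12 epithelial genes was -0.09 (4 above 0), and their summed level was 8896 TPM under DMSO against 6828 TPM under C3G. Of these 12 genes 2 were at least 2-fold lower and 5 at least 1.2-fold lower, among them the keratin genes Krt19 (2.75-fold lower), Krt7 (2.36-fold) and Krt18 (1.60-fold), and 1 was at least 1.2-fold higher, the splicing factor gene Esrp1 (109 and 151 TPM). None of the listed adipocyte, endothelial, contractile or epithelial genes was at 0 in either library. Preadipocytes in fat carry Pdgfra, Dpt and Pi16, and the part of fat tissue in these markers was not tested.

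**Figure D4:**
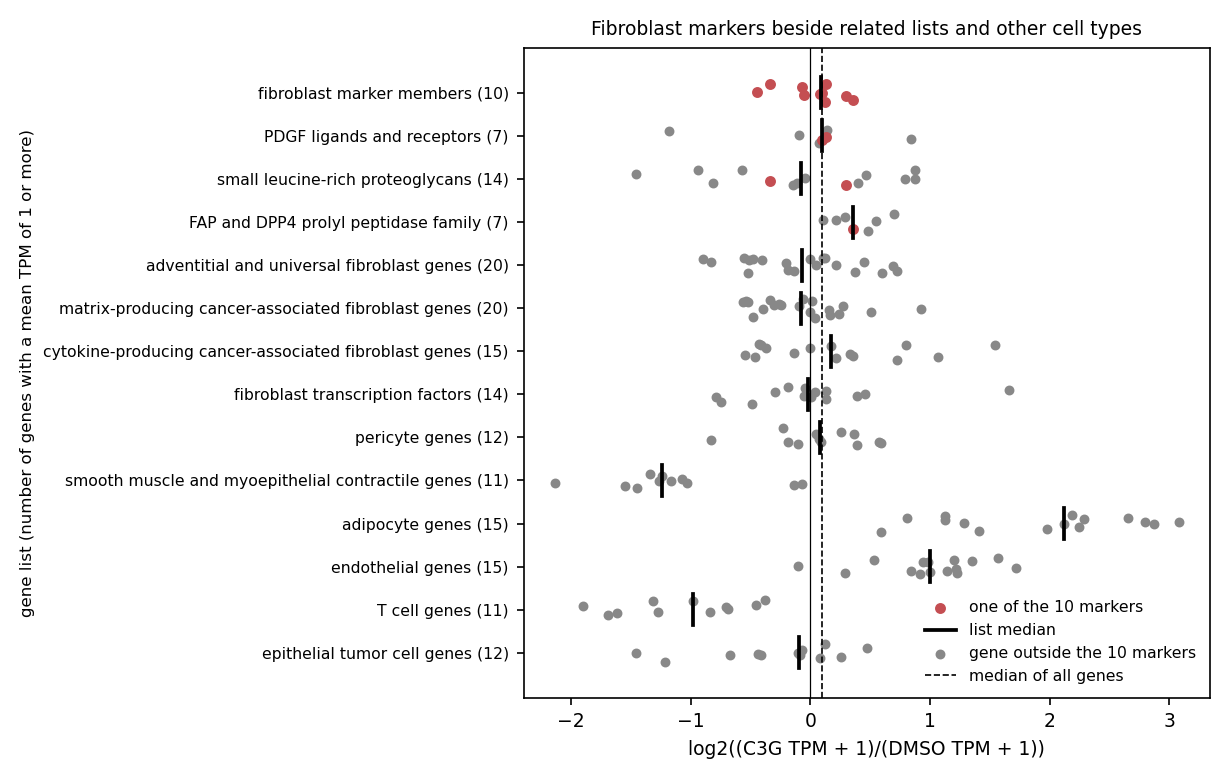
Log2 ratio of every gene with a mean of at least 1 TPM in each list (points), with the list median (bar) and the median of all genes (dashed line), 1 library per group. The 10 fibroblast markers, in red, lie within -0.45 and 0.36, while the adipocyte, endothelial, contractile and T cell lists lie to either side.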

How the data were processed

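RNA from 2 mammary tumors was sequenced after TruSeq RNA (version 2) library preparation, per the labels' protocols. The submitters' processing notes name FastQC, MultiQC, Trimmomatic 0.38 and featureCounts 2.0.0 with build mm10, and the aligner is not given in the sources used here. The deposited values are TPM (reads per gene length, with equal totals in both libraries), computed by the authors, 1 column per library. All 55536 identifiers matched GENCODE M21.

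In both libraries 100% of the values above 0, multiplied by the exon-union length of the gene, were whole multiples of a smallest step (tolerance 0.01 of a step), which was taken as 1 read. Folds are plain TPM ratios with exact conditional 95% intervals from these reads. Ratios between markers have exact conditional odds ratio intervals (scipy 1.17.1). Without molecular identifiers, reads are not independent molecules, so intervals and the floor of 3 reads cover counting error only. Log2 ratios use a pseudocount of 1 TPM and understate differences of low genes. Medians use genes with a mean of at least 1 TPM, and calls by fold, on the same scale as the log2 ratio, use genes with at least 5 TPM in either library.

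No test across genes was made. The code was tested on simulated data. The kit does not mark strand. Exons of Pdgfra overlap Mir7025, Gm42802 and Gm42803, and exons of Pi16 overlap AC162182.1, and these genes held 0 to 2 reads per library. In each of the 16 other lists (Ctgf was matched as Ccn2), the genes named are up to 4 with the log2 ratio largest in size among those with at least 5 TPM in either library, and the most abundant gene. Of the genes this rule names, those of the pericyte, contractile, adipocyte, endothelial and T cell lists are mostly covered by the list's median and summed level alone, and a gene of the Schwann cell list is not reported here. Kera and Dpp4 were named outside that rule, after their values were seen. The members and lists were chosen with earlier results of these data known. The groups come from the treatment label.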

Additional observations from a re-analysis of the deposited data

How the results depend on the processing

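The alternatives were a pseudocount of 0.1 or 5 TPM, no filter or a stricter filter on low values (mean of 5 TPM, or 20 TPM in either library for calls), centring on genes with a mean of at least 10 TPM, rescaling without mitochondrial and the 50 most abundant genes, removal of length and GC trends, and upper quartile scaling. The count of markers 2-fold apart was 0 under each. The count at least 1.2-fold higher, 1 in the main setting, was 2 without the filter, with rescaling and with the trend removed, and 0 with centring and with upper quartile scaling. The count at least 1.2-fold lower was 2, and 1 under the stricter filter, which left 6 markers and removed Pi16. The marker median lay between -0.03 and 0.10. The median of the mesothelial list was -1.46 from 1 measured gene and 0.034 without the filter, which adds genes at or near 0. Without the filter the median of the small leucine-rich proteoglycans changed sign, from -0.08 to 0.13. Fibroblast transcription factors moved from -0.02 to -0.33 under the stricter filter and to -0.23 with the trend removed, and skeletal muscle genes from -0.18 to 0.40 under the stricter filter, which left 1 gene. With a pseudocount of 5 TPM the medians were 1.45 for adipocyte, 0.64 for endothelial and -0.46 for T cell genes, and with 0.1 TPM 1.23 for endothelial and -1.18 for T cell genes. No paired analysis was possible because each group holds 1 library. Fap and Clec3b, with 90 and 94 reads in the DMSO library, are the markers that depth limits most.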

Other observations

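Transcription factors known from fibroblasts had a median log2 ratio of -0.02 over 14 measured genes of 16 listed, 7 above and 7 below 0. Meox2 measured 1.37 TPM under DMSO against 6.48 TPM under C3G, on 14 and 84 reads, a ratio of 4.73 (2.67 to 9.03), and is also an endothelial gene. Its relative Meox1 stood at 19.0 and 10.6 TPM, 1.79-fold lower (1.43 to 2.26), Osr1 at 41.1 and 24.1 TPM, 1.70-fold lower (1.45 to 2.00), and Twist1 at 14.3 and 9.95 TPM. The most abundant of them, Tbx15, stood at 71.5 and 78.3 TPM. Tcf21, a marker of resident fibroblasts in several organs, had no read in either library.

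Lists of cells that can lie beside a mammary tumor were also measured. Of 8 mesothelial genes 1 reached a mean of 1 TPM, the keratin gene Krt19 (678 and 246 TPM), which luminal epithelium shares, with Msln and Upk3b at 0 reads in both libraries. The 5 measured skeletal muscle genes of 12 listed had a median of -0.18, with Ckm, Myh1 and Pvalb at 0 reads in both libraries and Mb (myoglobin) at 20.9 and 27.9 TPM. The 10 Schwann cell and nerve genes had a median of -0.37. The most abundant, Sox10 (414 and 417 TPM), is a gene of mammary epithelium too, and Ncam1 stood at 39.5 and 20.5 TPM, Pmp22 at 57.4 and 39.2 TPM and S100b at 41.8 and 31.9 TPM.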
